A study of Homo sapiens with 12 samples.

Results

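The gene expression of OCI-Ly7 cells that had received vehicle alone was described from 3 arrays, those labelled as vehicle, out of the 12 arrays of the series. These 3 arrays were picked by their labels and not by a measured value, though earlier results of these data were known. OCI-Ly7 is an established human cell line of diffuse large B-cell lymphoma, and the labels give it as a B-cell non-Hodgkin lymphoma line. The cells were grown in DMEM with serum and kept for 24 hours in vehicle, in ibrutinib at 1 μM or 10 μM, or in PLS-123 at 1 μM, and each of the 4 groups has 3 arrays, lettered A, B and C. Ibrutinib and PLS-123 are inhibitors of Btk, a kinase of the B-cell receptor pathway. No allele or other agent that distinguishes the groups is given, all of them hold cells of the same line, and separate cultures for the 3 arrays within a group are not stated. The vehicle cells had spent the same 24 hours in culture as the treated cells, so they show the state in which the line stood beside the treatments and not before them.

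A mature B cell carries a B-cell receptor, an immunoglobulin on its surface held by the signalling chains CD79A and CD79B. After meeting antigen it can enter a germinal centre, where it divides fast, mutates its immunoglobulin genes and is held in that state by the repressor BCL6. A cell that leaves becomes a memory cell or, under the factors IRF4, PRDM1 and XBP1, a plasma cell that secretes antibody. Diffuse large B-cell lymphomas are sorted by which of these states they resemble, the germinal centre B cell or the activated B cell, and the enzyme MME (CD10) and BCL6 are used as markers of the former.

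The array, Affymetrix U133 Plus 2.0, reads a gene through at least 1 probe set, which pools short probes along a stretch of its transcript. Of 54675 probe sets, 54613 were no controls, and 41091 of these carry a single gene symbol, which gave 19775 genes. A gene was read by its brightest such probe set over the vehicle arrays, on a log2 scale on which 1 unit is a doubling of the intensity. Probes differ in how strongly they bind, so an intensity rank is not an order of mRNA amounts, and genes were therefore placed in classes. The background level was the 95th percentile of 119 measured genes of a panel restricted to tissues such as liver, retina, muscle and testis. It lay between 5.01 and 5.09 on the 3 arrays. A gene was called above background where it exceeded that level on all 3 arrays, at background where it stayed below on all 3, and unresolved otherwise. "Bright" means above background and within the top 10% of all genes, which began at 9.49. Gene values below are means ± SD of the log2 intensity over the 3 vehicle arrays.

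By this measure 9291 of the 19775 genes, or 47.0%, were above background in the vehicle cells, 10013 were at background and 471 were unresolved. The median gene stood at 4.85, the panel genes at a median of 3.22. By construction a few panel genes exceeded the level, and 5 were above it on every array, namely KRT10, CYP3A4 (1 of 5 probe sets), CYP11B2, SFTPC (2 of 5) and TF (1 of 4). At background therefore means within the range of genes that this cell is not thought to use, and a gene just above it is a weak call. The 3 arrays repeated each other closely. The SD over the arrays had a median of 0.0656 for genes above background and 0.135 for genes at background, and across probe sets, which are not independent, each pair of arrays had a Pearson correlation between 0.9962 and 0.9969. The largest SD among genes above background was 0.45, that of SND1-IT1, a transcript at 5.57 ± 0.45, followed by LILRB3 (1 of 4 probe sets above background), CEP97 (1 of 3), ACTL6A and TMPRSS6 (1 of 3) with SDs down to 0.36. No gene above background therefore varied by as much as 1 log2 unit in SD. For the 10523 genes with several probe sets the choice of probe set mattered more than the array. Their brightest and dimmest probe sets lay a median of 1.98 log2 units apart, and for 4071 genes, or 38.7%, some probe sets were above background on all arrays while others were not. Where fewer probe sets of a gene named below were above background than were not, their number is given, and it is given for some other genes. A lower level, the median of all probe sets, would put 50 of the listed genes at background above it, so these are weak calls. Among them are PRDM1, SERPINA9, CIITA, CXCR5, FCRL3, LAIR1, LILRB1, DOK2, GAB2, ITPR2, PRKCH, SGK2, MAPK10, MAPK13, SOCS3, CISH, TNFRSF14, TLR1 and TLR4. Metabolic ones include SHMT1, PC, PCK1, HK3, PKLR, COX7A1, SCD5 and CPT1C. The 90th percentile of the panel would put 9 above, namely BOK, CXCR3, ITGB2, MVD, PIK3R5, PRKCZ, RASGRP4, SPI1 and TEC. The cells were measured in bulk, so fewer cells using a gene and less of its RNA per cell cannot be told apart.

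**Figure D1:**
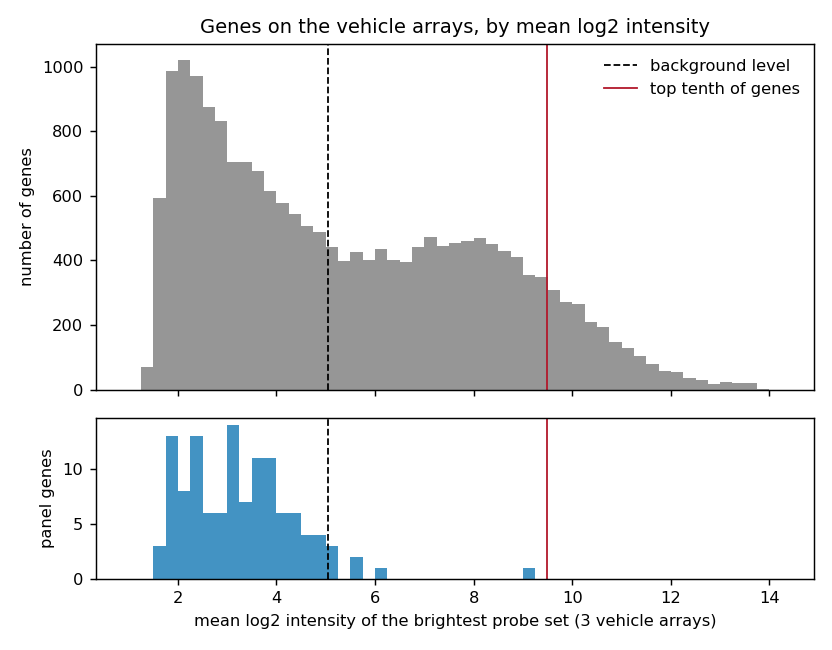
Upper panel, number of genes by mean log2 intensity of the brightest probe set over the 3 vehicle arrays. Lower panel, the same for the 119 measured genes of the tissue-restricted panel, with the mean background level as a dashed line and the lower end of the top 10% of genes as a red line. The genes form a tall dim group below the level and a broad shoulder above it, and 1 panel gene, KRT10, lies near the red line.

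The brightest signals came from the machinery of protein synthesis. RPL41, a protein of the large ribosomal subunit, read 13.89, 13.92 and 13.89 on vehicle arrays A, B and C, and RPS18 of the small subunit read 13.87, 13.86 and 13.90. Of the 30 genes with the highest mean, 23 encode ribosomal proteins. The mitochondrial gene ND4, a subunit of respiratory complex I, the elongation factor EEF1A1, the poly(A)-binding protein PABPC1, the tubulin TUBA1B, the prolyl isomerase PPIA, the growth-related protein TPT1 and the glycolytic enzyme GAPDH made up the rest, all between 13.49 ± 0.01 and 13.69 ± 0.01. Of 60 measured ribosomal protein genes, 57 were above background and 54 were bright. These genes have many near-identical pseudogenes and some share a probe set with them, so single ranks among them are uncertain.

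Many mRNAs of the translation machinery begin with a terminal oligopyrimidine tract, a C followed by a run of C and T, through which their translation follows growth signals. The starts of the 6 brightest genes that carry such a tract at the annotated start are shown because they carry a feature that the ranking did not use. RefSeq promoter sequences of GRCh38.p14 were matched to 15384 of the measured genes and to 25 of the 30 brightest. Each line gives 12 bases before and 18 bases after the start, with the tract from the start in capitals.
RPS18 (chr6:33272063-33272092, + strand): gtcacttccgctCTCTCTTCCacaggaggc
RPL37A (chr2:216498832-216498861, + strand): ccgcgtctcttcCTTTCTgggctcggacct
RPS19 (chr19:41860243-41860272, + strand): aaccccgtcgttCCCTTTCCCCTggctggc
RPS10 (chr6:34426052-34426081, - strand): cgcatgctccttCCTTTCCagccccggtac
RPS16 (chr19:39435932-39435961, - strand): gcccctagctttCCTTTTCCggttgcggcg
RPLP1 (chr15:69452806-69452835, + strand): taggcgcgagagCCCCTTTCCTCagctgcc
Written as C at the start followed by 5 further bases that are each C or T, on the strand of the gene, the tract was found in 16 of those 25 genes and in 34 of 52 ribosomal protein genes with a sequence. It was found in 3.0% of all 27305 promoters of this length, in 2.65% of genes at background and in 5.50% of the bright genes that encode no ribosomal protein.

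Besides the ranking, 38 lists of genes were read, 712 measured genes in all, of which 519 were above background, 215 bright and 180 at background. The lists hold genes of B-cell stages, signalling, the cell cycle and metabolism, so their share above background, 72.9%, is a description of the choice of lists as much as of the cell. Shares ran from all members of the proliferation and the NF-kB and NFAT lists down to 1 of 17 myeloid markers.

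**Figure D2:**
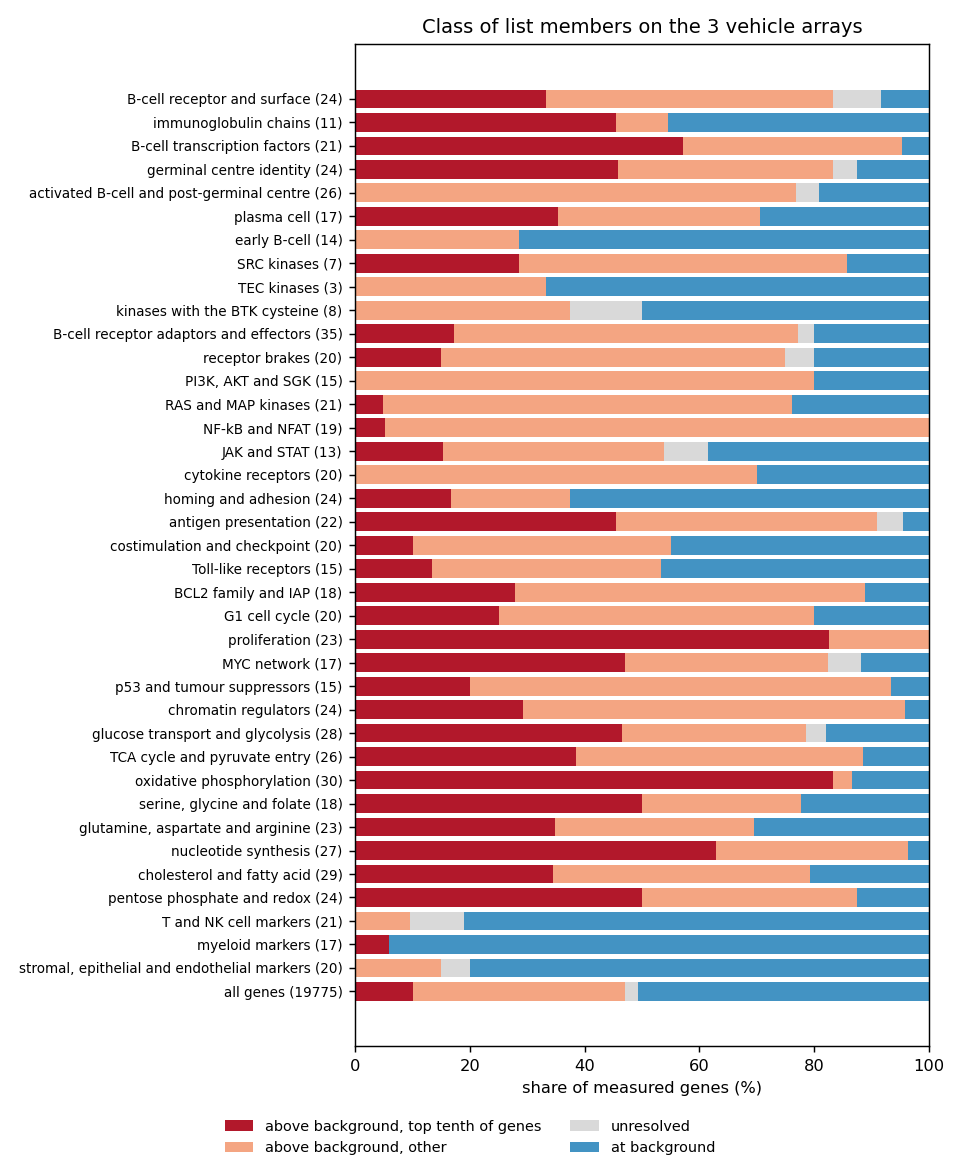
Share of the measured genes of each list (number in brackets) that were above background and within the top 10% of genes, above background otherwise, unresolved or at background on the 3 vehicle arrays, with all 19775 genes in the lowest bar. Proliferation and oxidative phosphorylation have the largest bright shares, and the lists of T and NK cell, myeloid and stromal markers are mostly at background.

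The surface of the vehicle cells read as that of a mature B cell. Of 24 measured genes of the receptor and the B-cell surface, 20 were above background and 8 bright. The label of the cells was checked first against CD79A, a signalling chain of the receptor, which read 10.49, 10.48 and 10.46 on arrays A, B and C. All 3 values lay in the top 10%. Its partner CD79B was at 11.18 ± 0.01, by 1 of 3 probe sets. MS4A1 (CD20), the surface protein to which rituximab binds, was at 12.38 ± 0.08, the highest of the list. CD24, a small glycoprotein of B cells, was at 11.87 ± 0.06, and FCRLA, an Fc receptor-like protein kept inside the B cell, at 11.29 ± 0.07. CD81, part of the co-receptor complex, was at 10.16 ± 0.07, the inhibitory lectin CD22 at 10.11 ± 0.02 and CD38, an enzyme raised on germinal centre and plasma cells, at 9.80 ± 0.08. CD27, CD37, CD40 and the complement receptor CR2 were above background without being bright. FCER2 (CD23), found on resting follicular B cells, was at background with 4.05 ± 0.22, as was FCRL3 with 4.67 ± 0.21. CD5 and FCRL2 fell on both sides of the level and stayed unresolved.

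Among the immunoglobulin genes, those of the IgM and kappa chains read highest. The heavy chain gene of IgM, IGHM, read 12.77, 12.82 and 12.81 on arrays A, B and C, and the kappa light chain gene IGKC read 12.88, 12.82 and 12.92. Both were among the brightest genes of the cell. IGHD, the IgD chain made from the same transcript as IgM in naive cells, was above background at 6.21 ± 0.03 and far from the top 10%. The switched heavy chains IGHG1 (3.84 ± 0.10, 0 of 5 probe sets above) and IGHA1 (3.13 ± 0.27, 0 of 2) were at background. Over all probe sets annotated to immunoglobulin genes alone, including variable segments, 12 of 21 for kappa were above background. Of the kappa probe sets, 6 lay in the range of the top 10% of genes and the brightest read 13.68. For lambda, 6 of 31 were above background, 4 lay in that range and the brightest read 10.87. IGLC1 was bright at 10.87 ± 0.05 by 2 of 9 probe sets, but at background by the median of its probe sets. Immunoglobulin genes resemble each other closely and their probe sets can bind several of them, so the source of the lambda signal is uncertain. JCHAIN, which joins secreted IgM into polymers, was bright at 11.44 ± 0.04, as was VPREB3, a chaperone-like protein of B cells, at 9.92 ± 0.04. The surrogate light chains of pre-B cells, VPREB1 and IGLL1, were at background.

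The transcription factors of the lineage were on. Of 21 measured factors, 20 were above background and 12 bright. PAX5, which fixes B-cell identity, read 10.67, 10.73 and 10.67 on arrays A, B and C, by 1 of 2 probe sets. The octamer coactivator POU2AF1 was at 11.66 ± 0.06, the E proteins TCF3 and TCF4 at 11.65 ± 0.03 and 11.12 ± 0.03, their inhibitor ID3 at 11.46 ± 0.03, ELF1 at 11.41 ± 0.08 and ETS1 at 10.95 ± 0.06. EBF1, BCL11A, BACH2, IRF8 and FOXO1 were also above background. SPI1 (PU.1), shared by B and myeloid cells, was the exception at 4.96 ± 0.11, just below the level, while its relative SPIB was above at 9.17 ± 0.09.

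Most germinal centre genes were above background, while some of the best known were at background. Of 24 measured genes, 20 were above background and 11 bright. BCL6 read 11.76, 11.72 and 11.82 on arrays A, B and C, with 3 of 3 probe sets above background. MME read 9.13, 9.14 and 9.13, with 2 of 2 probe sets above and all arrays just below the top 10%. GNA13, a G protein that confines germinal centre B cells, was at 11.66 ± 0.09, and P2RY8 and S1PR2, receptors that signal through it, at 10.12 ± 0.02 and 8.39 ± 0.01. IRAG2 (also called LRMP) at 11.59 ± 0.02, TCL1A at 11.37 ± 0.03, the G-protein regulator RGS13 at 10.95 ± 0.17 and the adaptor STAP1 at 10.50 ± 0.13 completed the 6 highest with BCL6 and GNA13. UNG, the uracil glycosylase that acts in immunoglobulin diversification, the methyltransferase EZH2 and MYBL1 were above background too. LMO2, a cofactor used to mark germinal centre lymphomas, read 2.91, 2.92 and 3.08 on the 3 arrays, with none of its 2 probe sets above. SERPINA9, a protease inhibitor named for germinal centre cells, was at background with 4.35 ± 0.10, as was HOPX with 2.43 ± 0.27, and SUGCT was unresolved. Of the germinal centre genes most used to sort these lymphomas, MME and BCL6 were thus above background and LMO2 and SERPINA9 at background, SERPINA9 weakly so, since it lay above the level set at the median of all probe sets.

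Genes of activated and post-germinal centre B cells were detected widely and at middling levels. Of 26 measured, 20 were above background and none was bright. FOXP1 at 9.34 ± 0.02, FUT8 at 9.32 ± 0.03 and NFKBIA at 9.06 ± 0.07 were the highest. IRF4 read 8.90, 8.76 and 8.75 on arrays A, B and C, but by only 1 of 3 probe sets, and it was at background when the median of its probe sets was taken. CD44, an adhesion receptor that germinal centre cells lack and other B cells carry, read 3.48, 3.90 and 3.82, and none of its 13 probe sets was above background. The cyclin CCND2 at 3.30 ± 0.10, the homing receptor CCR7 at 2.59 ± 0.24, the survival gene BCL2A1 at 2.04 ± 0.20 and CYB5R2 at 2.05 ± 0.15 were at background as well.

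Of 17 measured plasma cell genes, 12 were above background, 6 of them bright, and 5 at background. Besides JCHAIN and CD38 the bright members were PRDX4 at 10.86 ± 0.10, FKBP11 at 10.48 ± 0.03, MZB1 at 10.36 ± 0.06 and SEL1L3 at 10.04 ± 0.01. XBP1, the factor that builds up the endoplasmic reticulum, was at 8.61 ± 0.12 by 1 of 2 probe sets, and TNFRSF17 (BCMA) at 7.87 ± 0.15. PRDM1, the factor that ends the B-cell programme, read 4.20, 4.45 and 4.54 and was at background in all 3 probe sets, although it lay above the level when that was set at the median of all probe sets. The plasma cell surface genes SDC1 (CD138) and SLAMF7 were at background with 3.58 ± 0.34 and 2.59 ± 0.13. Of the early B-cell list, 10 of 14 were at background, including the recombinase genes RAG1 (2.18 ± 0.10) and RAG2 (1.66 ± 0.02), DNTT, CD34, KIT and FLT3. MYB, SOX4, the interleukin 7 receptor IL7R at 8.98 ± 0.03 and CD99 were above background.

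**Figure D3:**
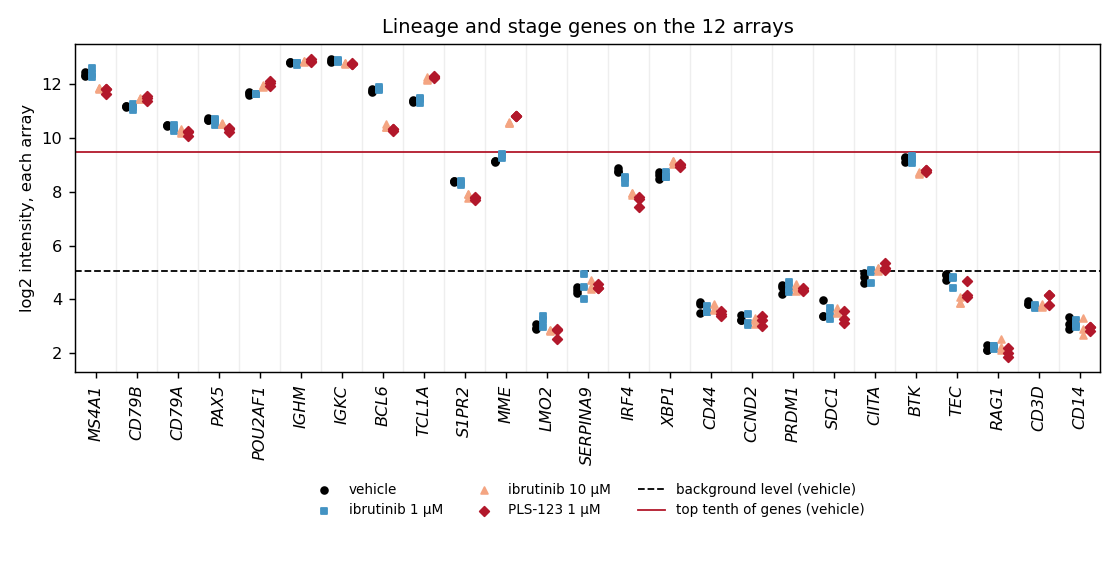
Log2 intensity on each of the 12 arrays for lineage and stage genes, with the 3 vehicle arrays in black and the treated groups beside them, and the background level and top 10% line of the vehicle arrays. Receptor, lineage and most germinal centre genes lie above the dashed line, and LMO2, SERPINA9, CD44, CCND2, PRDM1, SDC1, CIITA, TEC, RAG1, CD3D and CD14 lie below it on the vehicle arrays.

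Of 7 measured kinases of the Src family, which start B-cell receptor signalling, 6 were above background and 2 bright. LCK, better known from T cells, read 10.68, 10.66 and 10.66 on arrays A, B and C, and LYN, the main Src kinase of B cells, 10.28, 10.31 and 10.32. Both were bright. BLK at 9.47 ± 0.04 and FYN at 8.77 ± 0.13 were above background, FGR and SRC, the latter by 1 of 7 probe sets, were also above background, and YES1 was at background in all 3 probe sets. BTK, the target of the compounds tested, read 9.28, 9.09 and 9.27 on its single probe set, above background and just below the top 10%. Its relatives TEC and TXK were at background with 4.85 ± 0.12 and 2.27 ± 0.09, and TEC lay above the level when the 90th percentile of the panel was used. Ibrutinib binds a cysteine of Btk that a few other kinases share. Of the 8 measured, BLK, BTK and JAK3 (6.10 ± 0.10, 1 of 4 probe sets) were above background, ERBB2 was unresolved, and EGFR, ERBB4, TEC and TXK were at background.

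Below the kinases, 27 of 35 adaptors and effectors were above background. SYK, which binds the phosphorylated receptor chains, was at 10.06 ± 0.03, the linker BLNK at 10.36 ± 0.02, the phospholipase PLCG2 at 10.19 ± 0.08, the adaptor GRB2 at 10.57 ± 0.0038, the kinase PRKCI at 10.17 ± 0.07 and the adaptor SH3KBP1 at 9.91 ± 0.01, and these 6 were bright. PRKCB, the protein kinase C that serves NF-kB in B cells, was at 6.55 ± 0.08 by 1 of 6 probe sets. MALT1 and BCL10, which assemble with it further down, were at 8.02 ± 0.04 and 7.95 ± 0.15. LCP2 and PRKCQ, the T-cell counterparts of BLNK and PRKCB, were at background with 3.04 ± 0.09 and 3.56 ± 0.31. The B-cell scaffold BANK1 was also at background with 2.39 ± 0.04, as were, by weak calls, GAB2, ITPR2, PRKCH and PRKCZ. ZAP70, the T-cell relative of SYK, was unresolved.

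Genes that restrain the receptor were measured in 20 cases, with 15 above background. The phosphatases PTPRC (CD45) at 10.62 ± 0.10 and PTPRO at 10.39 ± 0.12, the latter by 1 of 3 probe sets, and CD22 were bright. The inositol phosphatase INPP5D (SHIP1) was at 7.91 ± 0.02. PTPN6 (SHP1), the phosphatase that CD22 recruits, was low at 5.66 ± 0.15 and fell to background at the 99th percentile of the panel. LAIR1, LILRB1, DOK2 and UBASH3A were at background.

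Of the kinases that carry the signal on, 12 of 15 genes of the PI3K and AKT list were above background and none was bright. PDPK1 stood at 9.43 ± 0.07, the leukocyte catalytic subunits PIK3CG and PIK3CD at 8.50 ± 0.10 and 8.24 ± 0.12 and the regulatory subunit PIK3R1 at 8.41 ± 0.09. PIK3R5, PIK3R6 and SGK2 were at background. In the Ras and MAP kinase list 16 of 21 were above background, led by MAP2K1 (MEK1) at 9.61 ± 0.01, MAPK9 at 8.59 ± 0.05, HRAS at 8.58 ± 0.08 and MAP2K2 at 8.52 ± 0.04, while RRAS, RRAS2, MAPK10, MAPK13 and RASGRP4 were at background. All 19 measured genes of the NF-kB and NFAT list were above background, with REL, the subunit most used in B cells, at 9.94 ± 0.06. Of 13 measured JAK and STAT genes, 7, or 53.8%, were above background, beside 47.0% of all genes, and 5 were at background. STAT6 at 9.98 ± 0.05 and JAK1 at 9.78 ± 0.09 were bright and TYK2 and STAT3 above background, whereas JAK2 (3.24 ± 0.21), STAT4 (3.60 ± 0.09), SOCS2, SOCS3 and CISH were at background. Among cytokine receptors the interferon receptors, IL4R at 8.78 ± 0.05, IL2RG, IL10RA and IL21R were above background and IL2RB, IL6R and IL13RA1 at background.

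Of 24 measured genes of homing and adhesion, 9, or 37.5%, were above background, beside 47.0% of all genes. CXCR4, which draws B cells to the dark zone of the germinal centre, read 11.14, 11.32 and 11.32 on arrays A, B and C. ICAM2 at 10.94 ± 0.08, the integrin ITGB1 at 10.61 ± 0.06 by 3 of 7 probe sets, and P2RY8 were the other bright members. CXCR5, the receptor for the follicle, was at background with 4.37 ± 0.32 in both of its probe sets, a weak call for the same reason as SERPINA9. GPR183 (1.70 ± 0.11) and S1PR1 (1.98 ± 0.11), receptors for the outer follicle and for exit, were at background too, and not by weak calls. The integrin ITGA4 (2.57 ± 0.20) and CCR6 (2.20 ± 0.43) were at background, and so was CD58 (2.12 ± 0.21), the ligand of the T-cell receptor CD2, in all 5 probe sets. ITGAL was above background at 8.24 ± 0.06, while its partner ITGB2 was at background with 4.99 ± 0.08, close to the level.

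Nearly all antigen presentation genes were above background. Of 22 measured, 20 were above background and 10 bright. B2M, the light chain of MHC class I, was at 12.68 ± 0.03, and the class II chains HLA-DRA at 11.79 ± 0.02, HLA-DPA1 at 11.73 ± 0.07 and HLA-DRB1 at 11.00 ± 0.07. The class I heavy chains HLA-C and HLA-B were at 11.52 ± 0.03 and 10.77 ± 0.07. CIITA, the coactivator on which class II genes depend, read 5.0, 4.83 and 4.61 and stayed below the level in all 3 probe sets. It was above the level set at the median of all probe sets, so this is a weak call. HLA genes vary in sequence between people, and their probe sets can read one allele better than another. In the costimulation list CD47 (10.55 ± 0.08) and CD48 (10.46 ± 0.04) were bright and CD70, CD86, CD40 and CD28 above background. CD28, a receptor of T cells, was at 8.07 ± 0.06 with all 3 probe sets above. CD80 (2.86 ± 0.08), CD274 (PD-L1, 3.55 ± 0.11), TNFRSF14 (4.30 ± 0.28) and PDCD1LG2 were at background. Of the Toll-like receptors, TLR10 (8.27 ± 0.11), TLR9 (6.91 ± 0.10), TLR6 and TLR7 were above background and TLR1, TLR2, TLR3, TLR4, TLR5 and TLR8 at background. Their adaptor MYD88 at 9.80 ± 0.03 and the kinase IRAK1 at 10.64 ± 0.04 were bright.

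Genes on both sides of the control of cell death were bright. Of 18 measured, 16 were above background. The pro-apoptotic gene BIK read 11.69, 11.75 and 11.76 on arrays A, B and C, the highest of the list, and PMAIP1 (NOXA) was at 10.25 ± 0.08. The pro-survival gene MCL1 was at 10.54 ± 0.03, the IAP gene BIRC5 at 10.05 ± 0.02, BIRC2 at 9.51 ± 0.04 and XIAP at 9.08 ± 0.01. HRK and BCL2L11 (BIM) were above background at 8.70 ± 0.03 and 8.43 ± 0.04. BCL2 itself was low at 5.72 ± 0.09, with 1 of 4 probe sets above, and was at background at the 99th percentile of the panel. BOK and BCL2A1 were at background.

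Genes of cell division were above background throughout. All 23 proliferation genes were above background and 19 were bright, with TYMS at 12.14 ± 0.09, RRM2 at 12.13 ± 0.02, PCNA at 12.04 ± 0.06, MCM6 at 11.67 ± 0.02, CDK1 at 11.41 ± 0.06 and RRM1 at 11.33 ± 0.03. Among the genes of entry into the cycle, CCND3 at 10.82 ± 0.03, by 1 of 2 probe sets, was bright, together with CDK4 at 11.18 ± 0.01, CDK6 at 10.02 ± 0.04 (3 of 7 probe sets) and E2F2 at 10.09 ± 0.05. The other D cyclins, CCND1 at 2.97 ± 0.06 and CCND2, were at background. The inhibitor CDKN2A (p16 and p14ARF) was bright at 9.50 ± 0.07, CDKN1A (p21) weak at 5.28 ± 0.07, and CDKN2B and CDKN1C were at background. MYC read 10.92, 11.02 and 10.92 on arrays A, B and C and its partner MAX was at 10.17 ± 0.06. MYCL was at background with 3.61 ± 0.16 and MYCN weak at 5.17 ± 0.11, with 1 of 10 probe sets above. The MYC-dependent genes NPM1 at 12.80 ± 0.03, ODC1 at 12.72 ± 0.03, NCL at 12.18 ± 0.01, FBL at 11.72 ± 0.05 and NOP58 at 11.08 ± 0.02 were bright. In the list around p53, MDM4 at 10.20 ± 0.14 and MDM2 at 9.57 ± 0.17 (4 of 10 probe sets) were bright and TP73 was at background. Of 24 chromatin regulators, 23 were above background, led by HDAC1 at 11.45 ± 0.02, SMARCA4 at 11.35 ± 0.07 and DNMT1 at 10.95 ± 0.04. CREBBP, KMT2D and EP300, which are often mutated in these lymphomas, were above background, and TET2 was the only member at background with 2.41 ± 0.06 in 3 probe sets.

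Within many metabolic enzyme families some members were bright and others at background. Of 28 measured genes of glucose transport and glycolysis, 22 were above background and 13 bright. GAPDH, LDHB at 13.23 ± 0.02, LDHA at 13.04 ± 0.05, ALDOA at 12.21 ± 0.05, PGK1 at 11.97 ± 0.05 and PGAM1 at 11.67 ± 0.01 were the highest. PGAM2 of muscle (3.95 ± 0.23), PKLR of liver and red cells (3.94 ± 0.06) and the hexokinase HK3 (4.39 ± 0.25) were at background, while PKM was bright at 10.36 ± 0.10 and HK1 and HK2 were above background. Among transporters SLC2A5 (GLUT5), known as a fructose transporter, read 10.87, 10.93 and 10.83 on arrays A, B and C, with 3 of 4 probe sets above. The glucose transporter SLC2A1 (GLUT1) was at 6.96 ± 0.07 by 1 of 2 probe sets, SLC2A3 was unresolved, and SLC2A4 and SLC2A2 were at background. Probe sets differ in binding, so these values do not rank the transporters by amount.

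**Figure D4:**
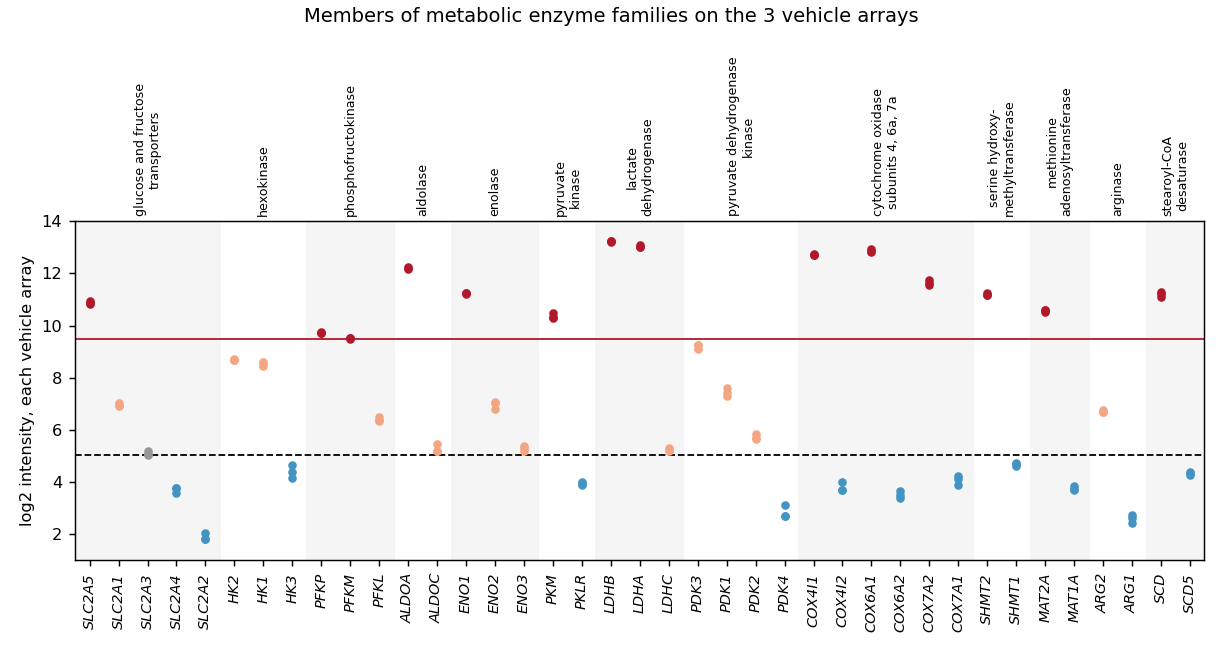
Log2 intensity on each of the 3 vehicle arrays for members of metabolic enzyme families, coloured dark red where bright, orange where otherwise above background, grey where unresolved and blue where at background. Most families hold at least 1 bright member beside dimmer ones, of which some, such as PKLR, SHMT1 and COX4I2, lie below the dashed background level, and the 3 arrays of a gene nearly coincide.

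Respiration genes were the brightest of the metabolic lists. Of 30 measured, 25 were bright, with COX6A1 at 12.86 ± 0.06, ATP5F1A at 12.84 ± 0.03, COX4I1 at 12.72 ± 0.04, CYCS at 12.56 ± 0.05, COX7C at 12.33 ± 0.05 and COX6C at 12.29 ± 0.05. The 4 members at background were the tissue-restricted subunits COX7A1 (4.07 ± 0.16), COX4I2 (3.80 ± 0.16) and COX6A2 (3.52 ± 0.13) and the coactivator PPARGC1A (2.29 ± 0.28). In the TCA cycle list 23 of 26 were above background, led by MDH1, PDHB, MDH2, PDHA1, CS and SUCLG1, all between 10.77 ± 0.04 and 12.01 ± 0.04. Pyruvate carboxylase (PC, 4.11 ± 0.14), the gluconeogenic PCK1 (4.42 ± 0.26) and PDK4 (2.83 ± 0.24) were at background, whereas the mitochondrial PCK2 was above at 8.13 ± 0.10.

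Of 18 genes of serine, glycine and folate metabolism, 14 were above background, 9 of them bright, and 4 at background. PSAT1 at 11.38 ± 0.08 and PHGDH at 10.07 ± 0.03, which make serine, were bright. So were the mitochondrial SHMT2 at 11.20 ± 0.03, which uses serine, and the mitochondrial MTHFD2 at 11.16 ± 0.12. The cytosolic SHMT1 was at background with 4.68 ± 0.06, a weak call, since it lay above the level set at the median of all probe sets. The mitochondrial MTHFD1L (2.72 ± 0.15) and GLDC (2.68 ± 0.01) and the liver form MAT1A (3.76 ± 0.10) were at background too. In amino acid supply, the ornithine decarboxylase ODC1, the arginine transporter SLC7A1 at 11.60 ± 0.05, the transaminase GOT2 at 11.24 ± 0.05, the transporters SLC38A2 and SLC7A5 and asparagine synthetase ASNS at 10.96 ± 0.06 were bright. Both enzymes that make arginine from citrulline were at background, ASS1 reading 3.81, 3.76 and 3.90 and ASL 2.10, 2.14 and 2.39 on the 3 arrays, and so were OTC, CPS1, ARG1 and PRODH. Glutamine synthetase GLUL was at background with 3.14 ± 0.23 in all 4 probe sets.

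Of 27 nucleotide genes, 26 were above background, led by DUT at 12.60 ± 0.14, PAICS at 11.79 ± 0.02 and ATIC at 11.46 ± 0.05, and the mitochondrial thymidine kinase TK2 alone was at background with 3.32 ± 0.27. In lipid metabolism FABP5 at 12.25 ± 0.05, the desaturase SCD at 11.20 ± 0.11, ACLY at 10.78 ± 0.09, ACADM, FDPS and HMGCS1 were the highest, and the lipid uptake genes CD36 (2.64 ± 0.17) and LPL (2.80 ± 0.24), FABP4, SCD5, CPT1C and MVD were at background, MVD being above at the 90th percentile of the panel. Redox genes included PRDX1 at 13.02 ± 0.02, SOD1 at 12.35 ± 0.05, TKT at 11.43 ± 0.06 and TXN at 10.86 ± 0.02, all bright, with HMOX1 (3.22 ± 0.24), GPX2 and TKTL1 at background.

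Markers of other cells that a culture could hold were nearly all at background. Of 21 T and NK cell markers, 2 were above background, CD28 and LAT at 6.33 ± 0.09. The defining CD3D, CD3E, CD3G and CD2 read 3.86 ± 0.06, 4.14 ± 0.07, 2.53 ± 0.05 and 2.25 ± 0.15, all at background. Of 17 myeloid markers CEBPB alone was above background, at 10.09 ± 0.03, and CD14, LYZ, MPO, CSF1R, S100A8 and S100A9 were at background. Of 20 stromal, epithelial and endothelial markers, PECAM1, COL1A1 by 1 of 5 probe sets and KRT8 were above background, and COL3A1, DCN, EPCAM, KRT19 and VWF were at background. On the log2 scale the summed intensity of the T and NK list ran from 9.14 to 9.23 over the vehicle arrays and that of the myeloid list from 10.26 to 10.30.

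The promoters of the classes differed in a feature that the arrays do not read. CpG dinucleotides are depleted from most of the human genome and kept in the CpG islands at which many widely used genes start. Over the 300 bases from 250 before to 50 after the start, the CpG count was set over the count expected from the C and G content. The median of this ratio was 0.86 for 7722 genes above background, 0.88 for 1704 bright genes and 0.55 for 7315 genes at background. The 14 B-cell surface genes above background that have a sequence had a median of 0.20, close to the 0.22 of the tissue-restricted panel, whereas the 18 proliferation genes had 0.90. These medians are descriptions, and the difference between the lists was not tested.

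The 250 bases before the start of the 3 marker genes are shown to make the contrast visible, with every CG in capitals, read on the strand of the gene from RefSeq GRCh38.p14.
CD79A (chr19:41877029-41877278, + strand): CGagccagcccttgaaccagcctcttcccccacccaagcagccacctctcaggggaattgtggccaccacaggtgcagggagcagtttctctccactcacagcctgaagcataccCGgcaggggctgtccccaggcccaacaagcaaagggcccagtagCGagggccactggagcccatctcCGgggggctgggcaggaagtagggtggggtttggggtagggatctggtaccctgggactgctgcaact
MME (chr3:155079422-155079671, + strand): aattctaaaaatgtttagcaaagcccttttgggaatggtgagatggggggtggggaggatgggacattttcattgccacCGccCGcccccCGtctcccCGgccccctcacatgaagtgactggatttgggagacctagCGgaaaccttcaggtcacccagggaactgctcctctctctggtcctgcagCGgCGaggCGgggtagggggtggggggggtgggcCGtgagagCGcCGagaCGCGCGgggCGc
BCL6 (chr3:187745469-187745718, - strand): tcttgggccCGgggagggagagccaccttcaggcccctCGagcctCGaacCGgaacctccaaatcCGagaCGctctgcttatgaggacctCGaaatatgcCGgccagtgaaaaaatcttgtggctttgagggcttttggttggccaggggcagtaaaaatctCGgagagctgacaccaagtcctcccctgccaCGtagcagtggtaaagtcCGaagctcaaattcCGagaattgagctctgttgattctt
Over 300 bases the ratio was 0.134 for CD79A, 0.66 for MME and 0.57 for BCL6, with 4, 19 and 12 CG dinucleotides. CD79A, which was bright, thus had a ratio below the median of genes at background, and MME and BCL6 lay between that median and the median of genes above background.

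**Figure D5:**
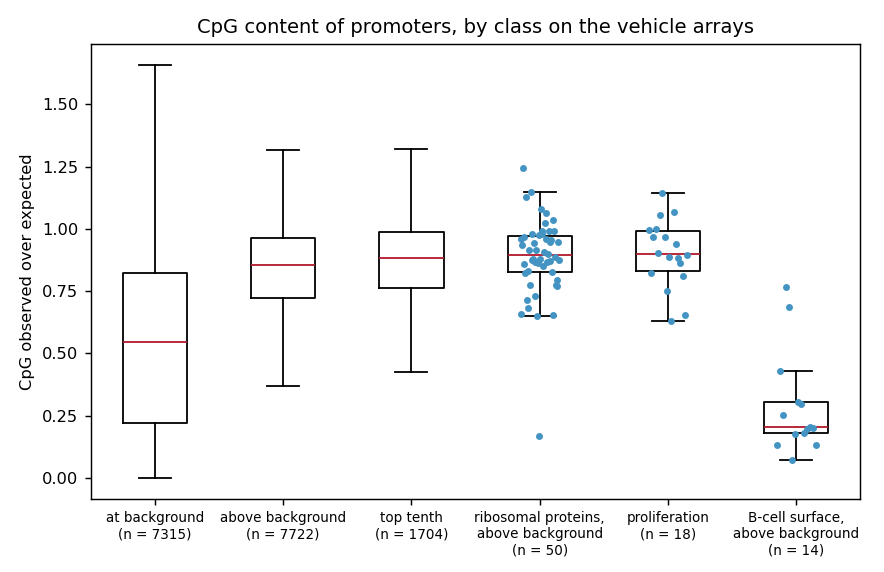
CpG observed over expected in the 300 bases around the start, for genes at background, above background and in the top 10% on the vehicle arrays, and for 3 groups of genes above background with each gene as a point. Boxes give the quartiles with the median in red and whiskers reach to the last gene within 1.5 box lengths, and the B-cell surface genes lie lowest.

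The same probe sets were read on the treated arrays, each group against its own background level, to see how far the vehicle pattern holds across the study. Of 9291 genes above background with vehicle, 99.4% stayed above it after ibrutinib at 1 μM, 98.4% after the drug at 10 μM and 95.9% after PLS-123. Limma's test over all 12 arrays, with the Benjamini-Hochberg adjustment over all tested probe sets, called no probe set at 1 μM ibrutinib at an adjusted p under 0.05, although 2943 had an unadjusted p under 0.05. With a single probe set per gene, 0% of the 19775 genes were called lower or higher there. At 10 μM ibrutinib 5.92% of genes were called lower and 6.54% higher, and with PLS-123 13.1% were called lower and 7.26% higher. The 3 comparisons share the vehicle arrays. In probe sets, PLS-123 gave 5664 lower and 3476 higher calls, and after a further quantile normalization 4715 and 4276, so the excess of lower calls depended on the scaling. Of the genes above background with vehicle, 11.1% were lower and 11.4% higher at 10 μM ibrutinib and 24.6% and 11.5% with PLS-123. That class rests on the same vehicle values as the comparison, and a dim gene has little room to fall, so its shares are given only to read the lists against.

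Against these shares, 9 of 24 germinal centre genes were lower and 3 higher at 10 μM ibrutinib, and 9 and 3 with PLS-123. The median log2 fold change of the list was -0.18 and -0.21, beside -0.022 and -0.041 over all genes. Some other lists had lower medians, such as antigen presentation with -0.30 at 10 μM ibrutinib and NF-kB and NFAT with -0.24 under PLS-123. Activated B-cell and post-germinal centre genes had higher ones, 0.18 and 0.090. With vehicle 20 of the 24 germinal centre genes were above background, against 47.0% of all genes. The difference between this list and all genes was not tested. Both named markers moved, in opposite directions. MME rose by 1.44 ± 0.07 at 10 μM ibrutinib and by 1.69 ± 0.07 with PLS-123 on the log2 scale, and BCL6 changed by -1.33 ± 0.08 and -1.45 ± 0.08 (limma, log2 fold change ± SE, adjusted p of 1.5e-08, 2.9e-09, 5.6e-08 and 2.2e-08). The 3 treated arrays of either group lay wholly above the vehicle arrays for MME and wholly below them for BCL6. CD79A changed by -0.29 ± 0.09 with PLS-123 (adjusted p = 0.0358 by limma), a call lost in 8 of 12 alternative fits, among them every fit that left out 1 array except that without PLS-123 array B. Its partner CD79B changed the other way, by 0.31 ± 0.08 with PLS-123 (adjusted p = 0.0203 by limma), a call lost in 5 of 12 alternatives, each leaving out 1 vehicle array or PLS-123 array A or B (log2 fold changes of 0.27 to 0.32). IGHM and IGKC had log2 fold changes between -0.11 and 0.08 with both compounds and did not pass the test.

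Of the B-cell surface list 8 genes were lower and 2 higher at 10 μM ibrutinib, and 10 and 4 with PLS-123, of 24. Over all genes 5.92% were lower and 6.54% higher at 10 μM ibrutinib, and 13.1% and 7.26% with PLS-123. Among genes above background with vehicle, as 20 of the 24 were, these shares were 11.1% and 11.4%, and 24.6% and 11.5%. The difference between the list and these shares was not tested. The gene of the target kinase itself, BTK, fell by 0.51 ± 0.09 at 10 μM ibrutinib and by 0.43 ± 0.09 with PLS-123 (log2, adjusted p of 0.00121 and 0.00340 by limma), and LYN fell by 0.41 ± 0.08 and 0.42 ± 0.08 (adjusted p of 0.00331 and 0.00198). MS4A1 fell by 0.54 ± 0.10 and 0.62 ± 0.10 and IRF4 by 0.86 ± 0.10 and 1.15 ± 0.10, whereas TCL1A rose by 0.84 ± 0.08 and 0.90 ± 0.08 and SLC2A5 by 1.02 ± 0.07 and 1.16 ± 0.07 (log2 ± SE, all with adjusted p of 0.00210 or less by limma). Most of these genes kept their class. CD28 was among those that did not, at 4.88 with 10 μM ibrutinib and 4.77 with PLS-123. RASGRP3, HLA-DOB and HDAC9 (1 of 5 probe sets above with vehicle) likewise went from above background to background with both. RASGRP1, SLAMF1 (1 of 3), TRAF1 and CD180 did so too. With vehicle they were only weakly above, and at background at the 99th percentile of the panel. CIITA went from 4.81 at background to 5.13, just above it, at 10 μM ibrutinib. SH2D1A, the adaptor of the SLAM receptors, went from 4.68 ± 0.12 at background to 6.20 and 6.30, above it. ACTB has probe sets near both ends of its mRNA, and their log2 difference (3' minus 5'), which grows as RNA is shortened, was 2.64 ± 0.04 on the vehicle arrays, 2.67 ± 0.18 at 1 μM ibrutinib, 2.74 ± 0.08 at 10 μM ibrutinib and 2.93 ± 0.20 with PLS-123. For GAPDH the same difference was 0.313 ± 0.04, 0.274 ± 0.033, 0.390 ± 0.0081 and 0.449 ± 0.015, with every array of 10 μM ibrutinib and of PLS-123 above every vehicle array. The part of these differences in the changes was not tested.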

How the data were processed

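Total RNA of OCI-Ly7 cells after 24 hours in vehicle or an inhibitor was labelled as biotin cRNA and hybridised to Affymetrix U133 Plus 2.0 arrays, 3 per group. The authors normalized the arrays by RMA (version not given in the sources used here) and deposited the values as intensity on a linear scale. Here log2 of the deposited intensities was taken with no pseudocount. Vehicle intensities ran from 2.10 to 15467 with array medians of 14.7 to 14.8, and the number of arrays limits the precision. Gene names came from the platform annotation, updated through gene IDs to current symbols for 41037 of the 41091 probe sets with a single symbol. A further 1801 probe sets name several genes and 11721 none, and these were not assigned to a gene. The background panel, the 38 lists and the choice of the vehicle arrays were made with earlier results of these data known. Of 785 listed genes, 712 were measured, and the others were not analysed here.

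Treated arrays were compared with vehicle by limma 3.58.1 in R 4.3.3, fitted to all 12 arrays (8 residual degrees of freedom) over 54613 probe sets, with the Benjamini-Hochberg adjustment and a threshold of 0.05, without a replicate block. The labels do not tie arrays of the same letter to a shared culture, and deviations of same-letter arrays from their group means correlated between -0.25 and 0.22, so the letters were not taken as pairs. The fit was tested on simulated data. Genes named were the 30 with the highest vehicle mean, CD79A, MME, BCL6, the 5 most variable genes above background and, in each list, up to 6 of the highest, up to 6 of those at background and members that mark a choice within a family. Others, such as SLC2A5 or PTPN6, were named for their role after their values were seen. Alternatives changed the background level, the probe set, the normalization, the test and the arrays. Promoter sequences came from RefSeq GRCh38.p14, and no protein sequence was used. All 12 value columns were used.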

Additional observations from a re-analysis of the deposited data

How the results depend on the processing

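The number of genes above background in the vehicle arrays, 9291, kept within 1.5 times under the alternatives run. It was 9881 with the level at the 90th percentile of the panel, 7640 at the 99th, 11675 at the median of all probe sets, 8196 by the median over a gene's probe sets and 9409 on the 1 μM ibrutinib arrays in place of vehicle, and leaving out 1 vehicle array gave 9357 to 9376. Without probe sets whose names end in _x_at or _s_at it was 6955 of 17098 genes. Of the 712 listed genes, 34 went from above background to background at the 99th percentile, 50 the other way at the median level, and 47 to background by the median over probe sets. Without the _x_at and _s_at probe sets, 36 of the 575 listed genes compared went to background. Among them were CD79B, ATP5F1A, NCL, ASNS and SMARCA4, which were bright by their brightest probe set. Of 418 list counts recomputed, 21 moved by over 1.5 times, 12 of them without the _x_at and _s_at probe sets, where 575 listed genes were left.

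For treatment against vehicle, the limma calls numbered 0, 5467 and 9140 probe sets at 1 μM ibrutinib, 10 μM ibrutinib and PLS-123. With the replicate block they were 0, 5024 and 8704, and it moved none of these counts by over 1.5 times. An intensity trend gave 13 calls at 1 μM ibrutinib. The methods' t-test, after the Benjamini-Hochberg adjustment, gave 3498 at 10 μM ibrutinib and 5131 with PLS-123, and the cause was not tested. Leaving out 1 array gave 0 at 1 μM ibrutinib, 3905 to 4409 at 10 μM ibrutinib and 6321 to 7838 with PLS-123. Of 336 recomputed fold changes of named genes at 10 μM ibrutinib and with PLS-123, none reversed, 21 lost and 7 gained the threshold. Those at 1 μM ibrutinib were not counted, and some changed sign. BTK went from -0.0097 to 0.023 there when vehicle array A was left out. A signal at background bounds neither the RNA nor the protein, since a probe set can bind poorly, and 3 arrays of a single line say nothing of other germinal centre lymphomas.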
